A study of Sus scrofa with 10 samples.

Results

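FSHR, which encodes the receptor of follicle stimulating hormone, and CYP19A1, which encodes aromatase, were followed in the ovaries of 10 gilts. Both were found by their gene symbol among protein-coding loci, each at 1 locus, and they are 2 of the 19972 protein-coding loci among the 43499 loci measured. Other loci that carry the same symbols but are not protein-coding were kept apart and are described further below. All gilts had been fed altrenogest, a progestin that holds back estrus, 20 mg daily, for 18 days starting at an age of 210 days, and feeding had stopped 2 days before the treatment. The rpFSH treatment group (5 pigs) then received 1000 IU per pig of rpFSH, a recombinant pig FSH made in CHO cells, and the control group (5 pigs) received saline. Ovaries were taken at 234 days of age, and the RNA is that of the ovary left after the follicles on its surface had been removed, with 1 library per pig. The 5 pigs of a group are separate animals, and the same number in both groups does not mark the same animal.

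FSH is a glycoprotein hormone of the pituitary. Its receptor is a G protein-coupled receptor that, in the ovary, is found on granulosa cells, the cells that line the growing follicle. Binding of FSH raises cAMP and activates protein kinase A, and genes for inhibin and activin subunits, aromatase and, later, the LH receptor are known targets. Theca cells around the follicle make androgens, and aromatase in granulosa cells converts these androgens to estrogens. The pig differs from most mammals in having several aromatase genes side by side.

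Total counts were between 64873797 and 75114003 per pig, with a median of 71374600 and no batch named in the labels, and 3 counts, taken as the floor, were 0.0399 to 0.0462 CPM, a count scaled to the library total. This covers counting error only. Markers of granulosa cells other than both genes were present in every pig, as were those of theca cells, luteal cells and stroma. The 9 oocyte markers summed to an FPKM of 5.31 to 22.6, with FIGLA, NOBOX or SYCP3 at 0 in some pigs. The summed FPKM (fragments per kilobase of locus, scaled to depth) of 7 luteal markers was 2737 in control replicate 2, 1433 in rpFSH replicate 1 and 356 in rpFSH replicate 4, against 33.5 to 70.2 in the others. The summed FPKM of 6 markers of surface and oviduct epithelium was 114 in control replicate 5 and 43.8 in control replicate 2, against 2.66 to 5.82 in the others. Where a group difference rests on these pigs, its value without them is given beside it. The likeness of other genes to FSHR and CYP19A1 was read over all pigs only.

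The locus of FSHR covered chromosome 3, 91605566 to 91779796, on the plus strand of Sscrofa11.1, a span of 174 kb. The RefSeq gene FSHR lies wholly inside it, at 91607236 to 91775255. The locus named CYP19A1 covered chromosome 1, 120477197 to 120696877, on the plus strand, a span of 220 kb. It held 3 RefSeq genes. CYP19A1 itself lies at 120596235 to 120627806 and CYP19A2 at 120652172 to 120695899. CYP19A3 lies at 120476890 to 120556103, with 99.6% of its span inside the locus. The value of this locus therefore adds the 3 aromatase genes, which cannot be told apart here, and CYP19A2 and CYP19A3 were not analysed as loci of their own.

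**Figure D1:**
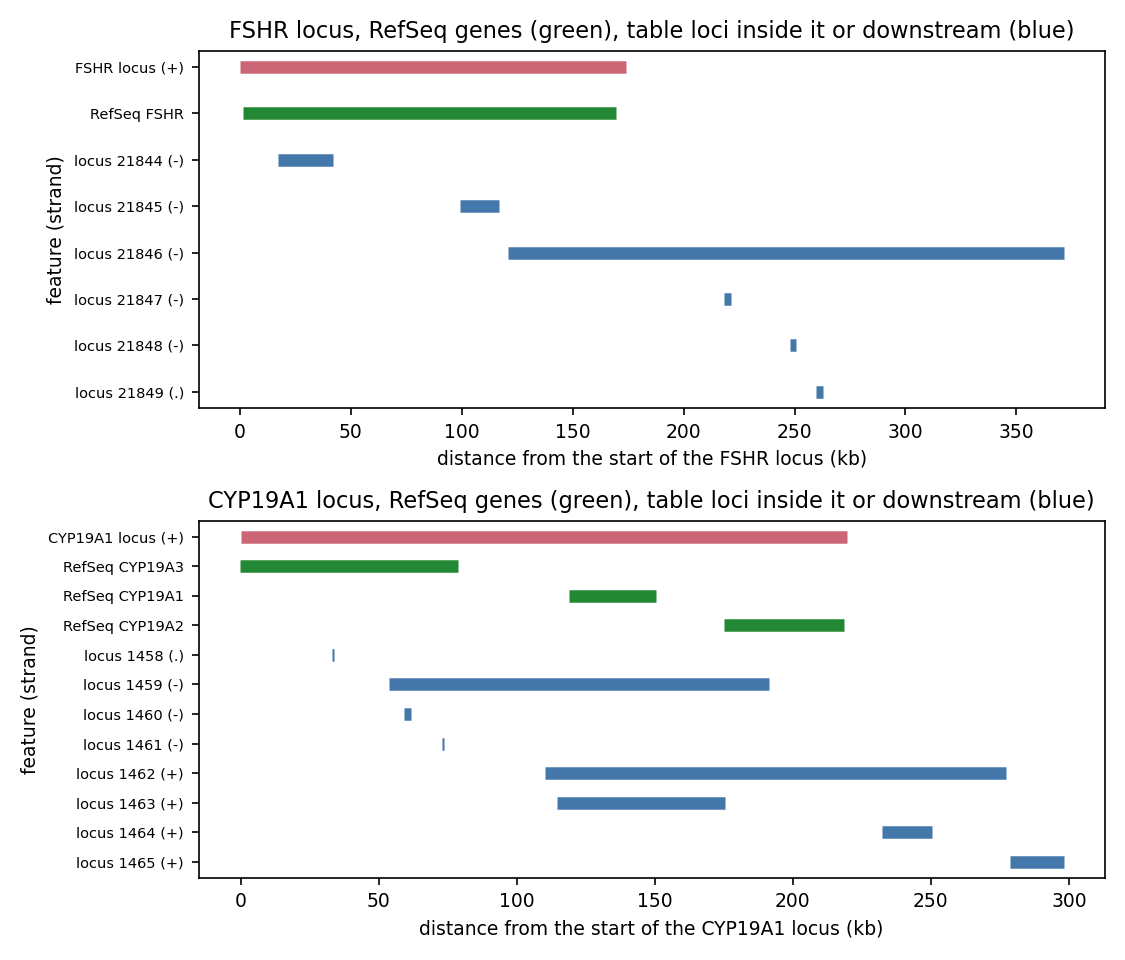
Map of both loci with the RefSeq genes inside them and the other loci that overlap them or lie downstream, by distance from the start of the locus in kb. Nearby loci upstream of the start are not drawn. The locus named CYP19A1 holds 3 aromatase genes, while that of FSHR holds 1 gene of the family.

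The length used to scale the counts can be read from the ratio of count to FPKM. It was 36.7 kb for FSHR, or 21.0% of the span, and 35.5 kb for CYP19A1, or 16.2% of the span. These are long, above 96.2 and 96.0% of the 10186 protein-coding loci with enough counts, whose median was 6.34 kb. FPKM levels of both genes are thus levels per kilobase of a merged locus that is longer than most mRNAs.

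The FPKM of FSHR was 7.02 in control replicate 1, 0.375 in replicate 2, 5.97 in replicate 3, 4.36 in replicate 4 and 3.05 in replicate 5. In the rpFSH treatment group it was 2.29, 6.36, 1.33, 1.36 and 4.13 in replicates 1 to 5. The groups overlapped over most of their range, with control replicate 2 the lowest and control replicate 1 the highest of all pigs. Counts behind these values were 1177 to 20494, so counting error was small beside the spread between pigs. Of the 9 neighbouring pairs in the order of the pigs, 1 pair (rpFSH replicates 3 and 4) had overlapping 95% Poisson intervals. The range was 18.7-fold and the coefficient of variation over the pigs 64.0%, higher than for 80.9% of the tested protein-coding loci. In level, the median over the pigs was above 63.3% of them.

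The FPKM of CYP19A1 was 3.02, 0.110, 2.36, 5.42 and 0.319 in control replicates 1 to 5. It was 1.14, 5.56, 0.239, 2.60 and 3.07 in rpFSH replicates 1 to 5. Low and high pigs were found in each group, and control replicate 2 was again the lowest. Counts were 336 to 17354, and 2 of the 9 neighbouring pairs had overlapping 95% Poisson intervals, namely control replicate 1 with rpFSH replicate 5 and control replicate 4 with rpFSH replicate 2. The range was 50.5-fold and the coefficient of variation 83.6%, higher than for 88.0% of the tested protein-coding loci, while the median level was above 49.3% of them.

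**Figure D2:**
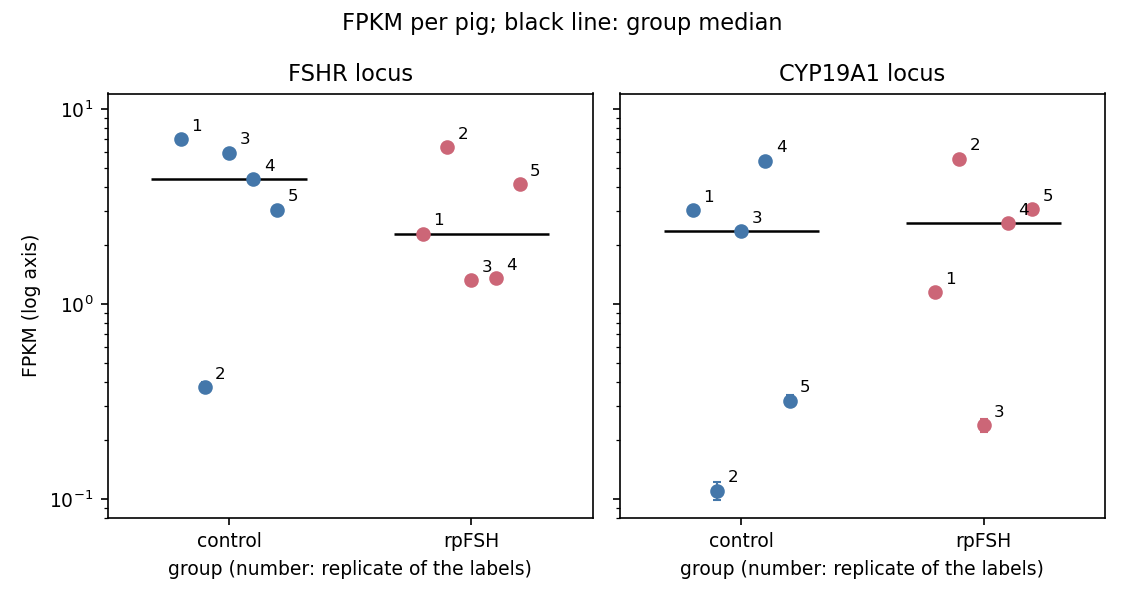
FPKM of both genes in each pig on a log axis, by group, with the 95% counting interval of each value and a black line at each group median. The points of the groups overlap for both genes, and control replicate 2 has the lowest value of each, 0.375 for FSHR and 0.110 for CYP19A1.

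Whether rpFSH treatment changed the RNA of its own receptor and of aromatase was asked first. FSHR had an FPKM of 4.15 ± 2.60 in controls and 3.09 ± 2.15 after rpFSH (SD, n = 5 each), with medians of 4.36 and 2.29. The quasi-likelihood test of edgeR on the counts gave a log2 fold change of -0.36 (SE 0.67, 95% interval -1.84 to 1.12), or 0.778-fold with an interval from 0.279 to 2.17, and an adjusted p of 0.999. On log2 (FPKM + 0.1) the difference was -0.22, with p = 0.833 by a two-sided exact permutation test over all assignments of pigs to groups, whose smallest p is 0.00794. The difference was smaller than the spread between pigs, and the interval includes a fall to 0.279-fold as well as a rise to 2.17-fold. On this log2 FPKM scale it turned to between 0.0019 and 0.083 when control replicate 1, control replicate 3, rpFSH replicate 3 or rpFSH replicate 4 was left out.

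CYP19A1 had an FPKM of 2.25 ± 2.18 in controls and 2.52 ± 2.04 after rpFSH (SD, n = 5 each), with medians of 2.36 and 2.60. Its log2 fold change by edgeR was 0.23 (SE 0.97, 95% interval -1.92 to 2.39), or 1.18-fold with an interval from 0.265 to 5.23, and the adjusted p was 0.999. On log2 (FPKM + 0.1) the difference was 0.49, with p = 0.706 by the same exact permutation test. The direction of the edgeR value rested on single pigs. It was -0.07 without control replicate 2, -0.05 without control replicate 5, -0.30 without rpFSH replicate 2 and -0.44 without control replicates 2 and 5 together, while FSHR was then at -0.83. Without the 3 pigs with high luteal sums, the values were 0.16 for CYP19A1 and -0.31 for FSHR. In RNA of whole tissue, fewer granulosa cells and less RNA per cell cannot be told apart.

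Neither gene passed the adjusted p of 0.05, which 0 of 36339 tested loci did (0% of them). At an unadjusted P under 0.05 there were 2102 loci by edgeR (5.78%), and DESeq2 gave 218 loci and limma 0 loci with an adjusted p under 0.05. Neither gene passed the looser limits of the study either, an unadjusted P under 0.05 with a log2 fold change above 1 or below -1, which 3.59% of all tested loci and 3.14% of the tested protein-coding loci did. The unadjusted P was 0.598 for FSHR and 0.814 for CYP19A1.

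**Figure D3:**
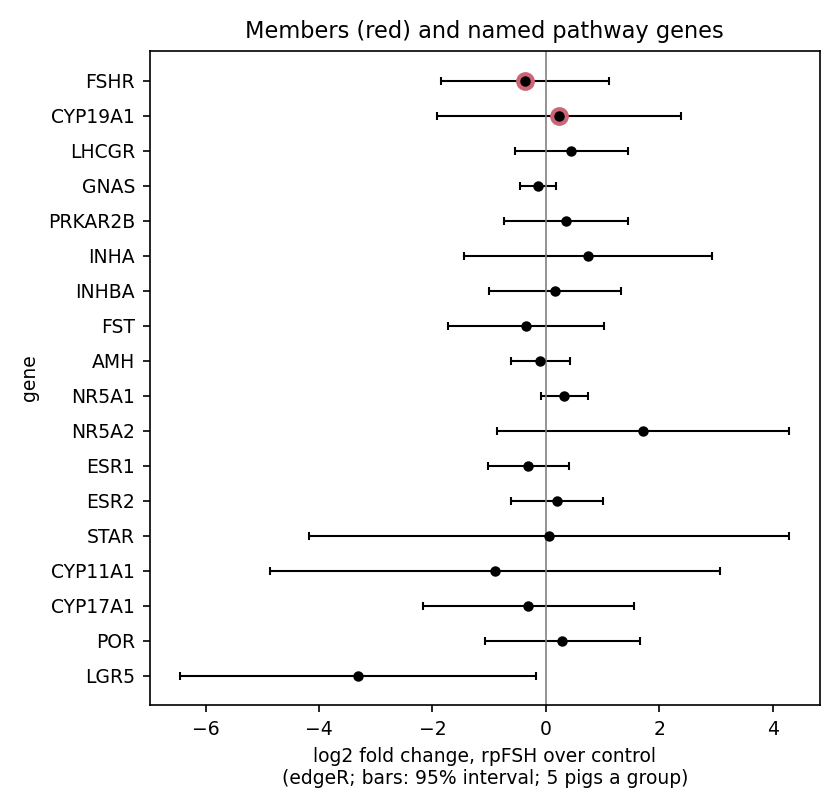
Log2 fold change (rpFSH over control, edgeR) with 95% intervals for FSHR, CYP19A1 and genes of the FSH pathway. The intervals of FSHR, from -1.84 to 1.12, and CYP19A1, from -1.92 to 2.39, both include 0, and that of LGR5 lies below 0.

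The level of the CYP19A1 locus per level of the FSHR locus was compared next. Both are FPKM of merged loci, and that of CYP19A1 adds the aromatase genes, so the ratio does not count transcripts. The ratio of the CYP19A1 to the FSHR FPKM was 0.431, 0.294, 0.396, 1.24 and 0.105 in control replicates 1 to 5. In rpFSH replicates 1 to 5 it was 0.499, 0.874, 0.181, 1.91 and 0.745. CYP19A1 was the higher of the pair in 1 pig of each group, control replicate 4 and rpFSH replicate 4. On the log2 scale, with 0.1 added to each FPKM before the ratio was taken, the mean was -1.25 ± 1.14 in controls and -0.55 ± 1.08 after rpFSH (SD, n = 5 each). The difference of 0.71 had p = 0.341 by the exact permutation test and was smaller than the spread between pigs. It was 0.29 without control replicate 5, 0.35 without rpFSH replicate 4, 0.38 without the 3 pigs with high luteal sums and 0.18 without control replicates 2 and 5, and 1.10 and 1.09 without control replicate 4 or rpFSH replicate 3.

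Over the 10 pigs, FSHR and CYP19A1 moved together, with a Pearson r of 0.767 (p = 0.00985) and a Spearman rho of 0.758 (p = 0.0156) on log2 (FPKM + 0.1), by permutation. With the group means taken off, r was 0.793. Without control replicate 2 and rpFSH replicate 3, the pigs farthest from the median of FSHR, r was 0.405 (p = 0.324) and rho 0.524 (p = 0.197) by exact permutation over 8 pigs, so that the relation rests on these pigs, control replicate 2 above all. Without control replicate 2 alone r was 0.611 (exact permutation p = 0.0799), and without rpFSH replicate 3 alone 0.745 (exact permutation p = 0.0252). These pigs were the lowest in FSHR and also in CYP19A1, and leaving both out narrows the range of each gene. This was the only relation between the genes that was tested, and no adjustment was needed. Control replicate 2 had the highest luteal sum and rpFSH replicate 3 the lowest granulosa sum of all pigs (2737 and 27.2 FPKM), and the part of cell makeup in the relation was not tested.

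**Figure D4:**
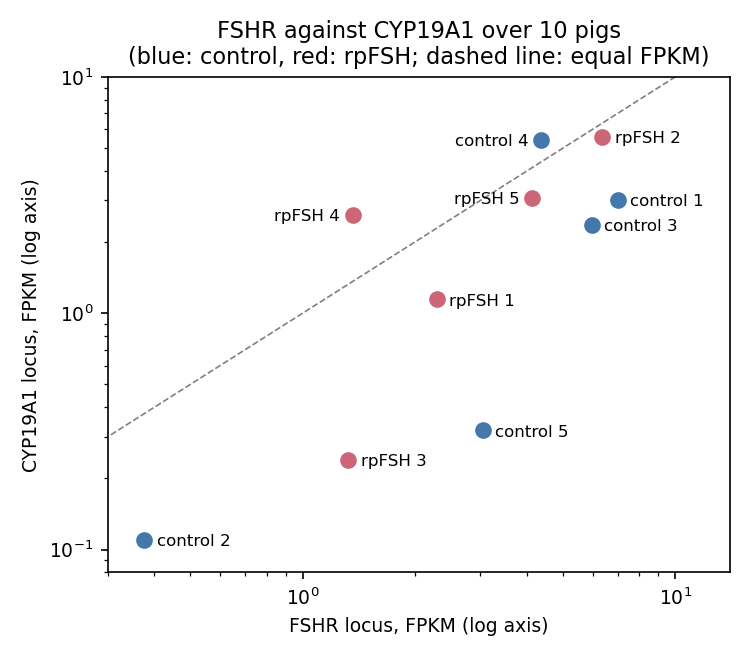
CYP19A1 against FSHR over the 10 pigs, both in FPKM on log axes, with a dashed line where they are equal. Control replicate 4 and rpFSH replicate 4 lie above the line, and control replicate 2 lies alone at the lower left.

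The genes most like each of them over the pigs were listed as a description, among 12341 protein-coding loci with a symbol and n = 10 pigs. Those most like FSHR were MEX3A (r = 0.977), an RNA-binding protein, RGS7BP (0.972), which binds a regulator of G protein signalling, EZH2 (0.964), the histone H3K27 methyltransferase, COLQ (0.963) and PTCH1 (0.963), the hedgehog receptor. CYP19A1 came 636th in this list. The genes most like CYP19A1 were INHBB (r = 0.958), the activin and inhibin beta B subunit, a locus shared by MRPS6 and SLC5A3 (0.949), RYK (0.947), a Wnt receptor, AFF2 (0.945) and COL11A1 (0.945), a collagen chain. FSHR came 429th in that list. The pigs shared their library and cell makeup across all of these genes.

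Among listed genes, likeness to the pair varied from gene to gene, and differences between values of r were not tested. INHA, the inhibin alpha subunit, had an r of 0.69 with FSHR and 0.88 with CYP19A1, and INHBA, the beta A subunit, whose locus also holds GLI3, had 0.70 and 0.84. FST, the activin-binding follistatin, had 0.61 and 0.75. AMH, the anti-Mullerian hormone of small follicles, in a locus shared with SF3A2, had 0.89 with FSHR and 0.65 with CYP19A1. ESR2, the estrogen receptor beta of granulosa cells, had 0.75 with both. Of the other listed granulosa genes, VCAN had 0.77 with FSHR and 0.81 with CYP19A1, GJA1 0.62 and 0.45, and CCND2 0.56 and 0.27. Some had r near or below 0. They were -0.66 with FSHR and -0.74 with CYP19A1 for KITLG, the kit ligand, -0.82 and -0.46 for AREG, an EGF-like factor, and -0.13 and 0.22 for NR5A2. For PGR, the progesterone receptor, they were 0.06 and -0.31, and for TNFAIP6 -0.10 and -0.08. High r with FSHR was not particular to granulosa genes. Among the theca markers, INSL3 had 0.94 with FSHR and 0.86 with CYP19A1, and GLI1, in a locus shared with INHBE, 0.91 and 0.73. Lower values were those of CYP17A1, at 0.46 and 0.69, LHCGR, at 0.28 and 0.53, and ANPEP, at 0.20 and 0.09. STAR, the cholesterol carrier at the mitochondrion, had -0.66 and -0.28, and CYP11A1, the side-chain cleavage enzyme, -0.62 and -0.31. Spearman rho was weaker, at -0.31 and -0.16 for STAR, -0.31 and -0.30 for CYP11A1 and -0.60 and -0.38 for AREG. STAR and CYP11A1, which are part of the luteal sum, were high in the luteal pigs, and their r without those pigs was not computed.

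**Figure D5:**
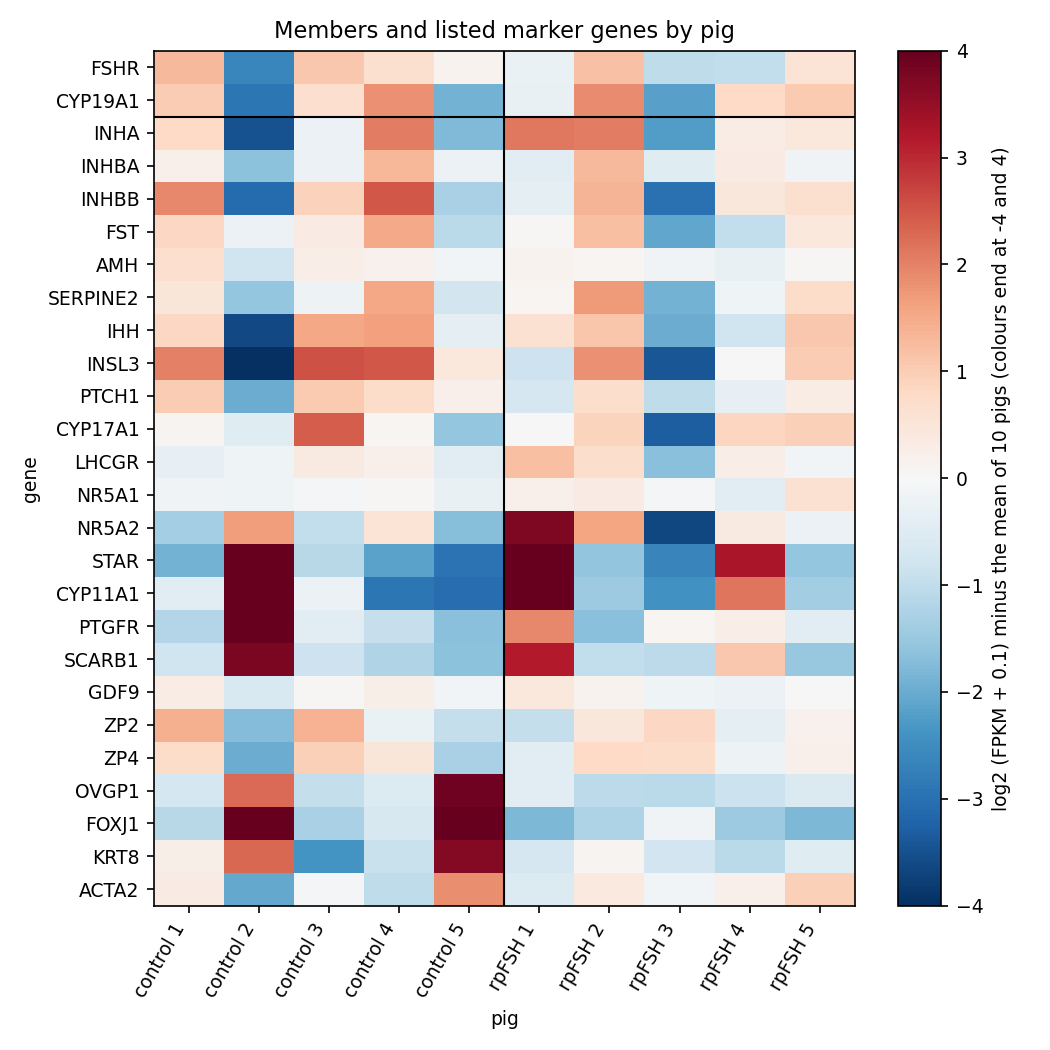
Difference of log2 (FPKM + 0.1) from the mean of the 10 pigs for both genes and listed markers, with control pigs on the left and rpFSH pigs on the right. FSHR, CYP19A1, INHA and INHBB are low in control replicate 2 and rpFSH replicate 3, while STAR and CYP11A1 are high in control replicate 2, rpFSH replicate 1 and rpFSH replicate 4.

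Other genes of the pathway were then read from lists of FSH signalling, granulosa targets, transcription factors, estrogen synthesis and related receptors. Of 88 listed genes other than FSHR and CYP19A1, 80 were matched and 77 tested. None had an adjusted p under 0.05 by edgeR, DESeq2 or limma, the lowest by edgeR being 0.848, and 1 passed the looser limits of the study, against 3.14% of the tested protein-coding loci. By the unadjusted P alone, 4 of the 77 were under 0.05, against 4.86%. The median log2 fold change of the 77 was -0.01, that of all tested protein-coding loci -0.05.

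Of the 20 genes of FSH signal transduction, 8 had a higher and 12 a lower fitted value after rpFSH, and the median log2 fold change was -0.08. GNAS, the stimulatory G protein alpha subunit, had an FPKM of 35.9 ± 4.30 in controls and 32.1 ± 1.99 after rpFSH (log2 fold change -0.14). PRKAR2B, a regulatory subunit of protein kinase A that FSH is known to raise, had 21.9 ± 11.7 and 27.1 ± 17.0 (0.35). ADCY9 and PDE4B, which act on cAMP, had an unadjusted P under 0.05. ADCY9, an adenylyl cyclase, had a log2 fold change of 0.33 and PDE4B, a phosphodiesterase, 0.62. Neither passed the adjustment, with an adjusted p of 0.848 for each by edgeR.

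Of the 18 tested granulosa targets, 8 were higher and 10 lower, with a median of -0.06. LHCGR, the LH receptor, had an FPKM of 3.03 ± 0.73 in controls and 4.01 ± 2.41 after rpFSH (log2 fold change 0.45). INHA had 22.6 ± 26.3 and 35.8 ± 29.8 (0.75), INHBA 5.33 ± 3.93 and 5.73 ± 3.50 (0.16) and FST 29.9 ± 19.4 and 22.5 ± 16.9 (-0.35). AMH had 3.04 ± 1.09 and 2.76 ± 0.336 (-0.10). INHA ran from 1.34 to 66.1 among the control pigs and from 3.27 to 68.7 among those given rpFSH. ADAMTS1, a protease of the follicle wall at ovulation, had the smallest P of the list, with 7.47 ± 3.12 and 13.6 ± 3.24 (0.90, adjusted p = 0.848 by edgeR), and it was past the looser limits without control replicate 3 or without rpFSH replicate 1.

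Of 19 transcription factors known to act on FSHR or CYP19A1, 11 were higher and 8 lower, with a median of 0.03. NR5A1, steroidogenic factor 1, had 4.24 ± 0.409 and 5.21 ± 1.35 (log2 fold change 0.33). NR5A2, its relative in granulosa and luteal cells, had 8.73 ± 9.18 and 28.1 ± 41.9 (1.71, SE 1.16, adjusted p = 0.961 by edgeR). The rpFSH mean of NR5A2 was led by replicate 1, at 102, which was also the pig with the highest luteal sum of its group, while rpFSH replicate 3 had 0.507. Its log2 fold change was 0.16 without rpFSH replicate 1, 1.07 without the 3 pigs with high luteal sums and 2.38 without control replicates 2 and 5. ESR1 had 3.30 ± 1.59 and 2.62 ± 0.870 (-0.31) at a locus shared with CCDC170, and ESR2 1.19 ± 0.610 and 1.33 ± 0.296 (0.20).

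Of 18 genes of estrogen synthesis, inactivation and response, 11 were higher and 7 lower, with a median of 0.23. CYP17A1, the theca enzyme that makes the androgens aromatase uses, had 13.2 ± 16.0 and 10.3 ± 6.18 (log2 fold change -0.31). POR, the electron donor of aromatase, had 2.86 ± 1.98 and 3.40 ± 2.21 (0.29). STAR had 109 ± 236 and 116 ± 193 (0.06), and CYP11A1 366 ± 778 and 201 ± 336 (-0.90), with the high values in the 3 pigs with high luteal sums. Both genes are part of these sums, so their high values there and the change without these pigs follow in part from the choice. Without these 3 pigs the log2 fold changes were 0.10 for STAR and -0.50 for CYP11A1, and without control replicates 2 and 5 they were 4.98 and 3.21. STAR and CYP11A1 were past the looser limits without control replicate 2, together with CEBPB and AREG.

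LGR5, a receptor of the same family as FSHR that marks stem cells in several epithelia, was the gene past the looser limits, with a log2 fold change of -3.31 (SE 1.41) and an adjusted p of 0.850 by edgeR. Its FPKM was 0.989 in control replicate 2 and 1.34 in control replicate 5, and at most 0.116 in every other pig, so that the groups overlapped. These are the pigs with high epithelial markers, of which 5 of 6 (OVGP1, FOXJ1, EPCAM, KRT8 and KRT18) were lower past the same limits. In this direction the limits were passed by 2.74% of the tested protein-coding loci and 2.5% of all tested loci. The summed level of the 6 was 2.66 to 114 in controls and 4.01 to 4.97 after rpFSH, and its part in LGR5 was not tested. Without control replicates 2 and 5, the log2 fold change was 0.10 for LGR5 and -0.35 to 0.86 for the 6 markers, and none of them was past the limits. These pigs were chosen by the sum of the same 6 markers, so the change in the markers follows from that choice. LGR5 was not past the limits without control replicate 2, control replicate 5 or rpFSH replicates 1, 2 or 4.

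Loci that overlap the genes or lie within 100 kb were read last. Of 14 loci near FSHR, all were tested and 1 was past the looser limits, against 3.59% of all tested loci. It was MSTRG.21839, a locus of 0.253 kb with its start at -56.3 kb from that of the FSHR locus, with 0.555 ± 0.399 in controls and 1.59 ± 0.796 after rpFSH (log2 fold change 1.53, adjusted p = 0.848 by edgeR). It was not past them without control replicate 2 or 5 or rpFSH replicate 1 or 5. Near CYP19A1, 9 of 11 loci were tested and 0 were past the limits.

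Loci on the minus strand overlapped both genes. MSTRG.21844 (17.0 to 42.2 kb from the start of the FSHR locus) had counts equal to 61.5 to 104% of those of FSHR, MSTRG.21845 had 41.8 to 67.1%, and MSTRG.21846, which holds GTF2A1L and runs from 121 kb to 371 kb, past the end of FSHR, 5.17 to 9.86%. Their r with FSHR over the 10 pigs was 0.982, 0.988 and 0.974. Inside CYP19A1, MSTRG.1459 had 6.63 to 12.1% of its counts and an r of 0.992. The log2 fold changes of these loci were -0.36, -0.34, -0.15 and 0.29, beside -0.36 for FSHR and 0.23 for CYP19A1. MSTRG.1460 and MSTRG.1461, also on the minus strand inside CYP19A1, were too low to be tested, with at most 0.0274 and 0.137 FPKM and an r of 0.57 and 0.39. MSTRG.1458, a locus of 0.292 kb with no strand, had an r of 0.60. Of the loci in this paragraph, MSTRG.21844 and MSTRG.21845 also carry the symbol FSHR, and MSTRG.1458 and MSTRG.1460 the symbol CYP19A1, without being protein-coding. The methods describe a kit that marks the strand, but whether the counts used strand is not given in the sources used here, so the reads of a gene and its antisense locus may not be separate.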

How the data were processed

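Ovary RNA of 10 gilts was sequenced, and the authors deposited for each pig a count and an FPKM per locus. According to the methods, rRNA was removed with Ribo-Zero, a kit that marks strand by dUTP was used, reads were mapped to Sscrofa11.1 and StringTie gave FPKM. The labels instead name poly(A) selection, and the submitters' processing notes name Bowtie 0.12.2, HISAT2 2.0 and StringTie 1.3.0. How the deposited counts were made is not given in the sources used here.

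Groups were compared on the counts with edgeR 4.0.16 (quasi-likelihood test, TMM) in R 4.3.3, on the 36339 loci whose mean FPKM was 0.1 or more, with Benjamini-Hochberg adjustment over all of them. It takes the place of the authors' Ballgown test on FPKM. DESeq2 1.42.0 and limma 3.58.1 were alternatives, with other scalings, filters and pseudocounts and each pig left out. Single values used two-sided exact permutation tests on log2 (FPKM + 0.1), in Python 3.11.15 with scipy 1.17.1. Correlations used 100000 permutations, or all with fewer than 10 pigs. On simulated counts with 200 changed loci of 36339 (log2 change of 2), edgeR and DESeq2 each called 99.5% of them, and 4.78 and 19.8% of their calls were unchanged loci. Both genes vary more between pigs than most loci, so this says little of the power for them.

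Both genes and the lists were chosen with earlier results of these data known. Named genes are FSHR and CYP19A1, a fixed choice of listed genes, listed genes past the looser limits, the 5 most like each of them, and loci inside or past those limits within 100 kb. ADCY9, PDE4B, ADAMTS1, CEBPB, AREG, KITLG, PGR, TNFAIP6 and the epithelial markers were named after their values were seen. So were INSL3, GLI1, ANPEP, VCAN, GJA1 and CCND2. Of 131 listed genes, 120 were matched, and 11 were not analysed here, among them HSD17B1, FOXL2 and HSD3B1. Replicate numbers come from the labels. Same-numbered pigs had correlations of deviations from -0.216 to 0.0143, so the numbers do not pair them. No pair of libraries agreed within sampling noise.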

Additional observations from a re-analysis of the deposited data

Results flagged for a closer look

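A single pig lay far from the others of its group in 3 of the 36 groups of 5 examined among the named genes, where chance gives about 1 in 20. For ESR1, control replicate 5 had a log2 FPKM of 2.64, the nearest other being 1.47. For STAR, control replicate 2 had 9.05, the nearest being 2.53. For CYP17A1, rpFSH replicate 3 had -0.35, the nearest being 2.93. Control replicate 5 had the highest epithelial and smooth muscle sums, control replicate 2 the highest luteal sum, and rpFSH replicate 3 the lowest granulosa sum, and the part of these in the values was not tested. STAR is itself part of the luteal sum. On this scale, FSHR and CYP19A1 had no such pig in either group. FSHR in control replicate 2 came close to the limit, at 0.375 FPKM against 3.05 to 7.02 in the other controls.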

How the results depend on the processing

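FSHR kept a negative value in all 22 alternatives, which include DESeq2 and limma, from -0.83 to -0.08, and CYP19A1 kept its sign in 18 of 22. With 1 pig left out, CYP19A1 ranged from -0.30 to 0.85, and it was -0.44 without the 2 pigs highest in epithelial markers. The cause was not tested. The exact difference with 1 pig left out ranged from -0.89 to 0.083 for FSHR and from -0.17 to 1.10 for CYP19A1. The correlation of the pair was 0.405 without the 2 pigs farthest from the median, and 0.611 to 0.857 with 1 left out. The difference of the log2 ratio kept its direction in all 17 alternatives but moved between 0.18 and 1.10. No alternative put either gene past a threshold.

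Loci past the looser limits numbered 1305, 364 with a mean FPKM of at least 1, 473 on protein-coding loci only, 696 and 807 with limma on log2 (FPKM + 1) and (FPKM + 0.1), 785 without the 3 pigs highest in luteal markers, and 1096 to 1499 with 1 pig left out. For limma, the fold set against the limit was the ratio of the group means of FPKM, with the P of limma. With the replicate number as a block, the loci past the limits were 765, with 0 listed genes and 0 loci near the genes. The lower share was 69.6%, and 41.2% without the pigs high in epithelial markers. Listed genes numbered 1, which was LGR5, but 0 with a mean FPKM of at least 1, a filter that leaves LGR5 out. They numbered 0 with either limma setting or without the luteal pigs, 3 without the epithelial pigs and 0 to 4 with 1 pig left out. Loci near the genes numbered 1, which was MSTRG.21839, but 0 on protein-coding loci only, a fit that leaves it out as not protein-coding. They numbered 0 without the luteal pigs or without the epithelial pigs, and 0 to 2 with 1 pig left out. The runs without luteal or epithelial pigs were chosen after seeing the data. With 5 pigs a group and a spread this wide, the intervals of both genes allow changes beyond 2-fold.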

Other observations

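Loci on the plus strand inside and beyond the CYP19A1 locus had a higher r with FSHR, on another chromosome, than with CYP19A1, a difference that was not tested. They were singled out after their values were seen. MSTRG.1462 and MSTRG.1463 overlap the locus from 110 and 115 kb after its start, and both carry the symbol CYP19A1 without being protein-coding. MSTRG.1464 and MSTRG.1465 lie beyond its end, at 232 to 250 and 279 to 298 kb. Over the 10 pigs, their r with CYP19A1 was 0.73, 0.77, 0.74 and 0.78, and with FSHR it was 0.92, 0.92, 0.90 and 0.90. None was past the looser limits, with log2 fold changes of 0.21, 0.18, 0.13 and 0.21. The FPKM of MSTRG.1462 was highest in rpFSH replicate 2, at 2.50, and lowest in control replicate 2, at 0.0920, which were also the highest and the lowest pig of CYP19A1. The highest pig of FSHR was control replicate 1, at 7.02.

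FOXO1, a transcription factor of granulosa cells, and SERPINE2, a protease inhibitor, were other listed genes that followed CYP19A1, with r of 0.89 and 0.92, against 0.75 and 0.74 with FSHR. IHH, the hedgehog ligand of granulosa cells, had 0.93 with FSHR and 0.86 with CYP19A1. These are descriptions over 10 pigs, and the genes were picked after their values were seen.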
